A study of Mus musculus with 2 samples.

Results

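Long non-coding RNA (lncRNA) genes were examined in heart tissue of adult female mice. They were the genes typed lincRNA, antisense, bidirectional_promoter_lncRNA, sense_intronic or sense_overlapping in the annotation that the deposited models carry, with the single gene Mhrt left out. This gave 9359 of 55536 annotated genes, of which 5854 were lincRNA, 2958 antisense, 190 bidirectional_promoter_lncRNA, 327 sense_intronic and 30 sense_overlapping genes. Of the 9359, 1185 had at least 1 read. The study sequenced heart RNA with long reads, in which 1 read stands for 1 cDNA molecule. It comprised 1 group of 2 libraries (replicate 1 and replicate 2), and therefore held no contrast of conditions. Both came from untreated B6CASTF1/J females aged 18 to 20 months, an F1 hybrid strain, with 2 µg of total RNA as input. The labels number the libraries as biological replicates 1 and 2 and list a separate biosample for each. The same labels give 1 donor entry for both libraries, so the spread between them may be technical.

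Transcripts of lncRNA genes are made by RNA polymerase II, and many are capped, spliced and polyadenylated like messenger RNA, but they hold no long conserved reading frame. Some act on chromatin near the site where they are made, some scaffold nuclear bodies, some host small nucleolar RNAs or microRNAs in their introns, and for many no role is known. Antisense and divergent genes are typed by where they lie relative to a coding gene, and not by function. In heart, lncRNAs such as Bvht (Braveheart) are known from work on the differentiation of cardiac muscle.

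The read that carries most about such a gene is one that crosses an exon junction, because it fixes both the strand and the intron that was removed. The junctions of the leading annotated transcripts of the 6 lncRNA genes with most spliced reads are shown for that reason. Each line gives the last 15 and first 15 bases of the exons that were joined, in the direction of transcription, from the GENCODE M21 transcripts on mm10. The coordinates are those of the exon bases on either side of the intron, and capitals mark the 2 bases on each side of the junction.
Ndufb1-ps, exons 1 and 2 of Ndufb1-ps-203, chr12:101969637-101975660, minus strand: gtcaccaggctgaAGCAgtcaagatgacct
Ndufb1-ps, exons 2 and 3 of Ndufb1-ps-203, chr12:101968210-101969493, minus strand: catgctatttcaaAGGGaactgaggcccaa
Gm15543, exons 1 and 2 of Gm15543-201, chr6:145182369-145187365, plus strand: cagcagattcctgAGATcccaccctgaaca
1810058I24Rik, exons 1 and 2 of 1810058I24Rik-203, chr6:35252782-35260410, plus strand: atgctccagttccTGCTtggatttactttg
1810058I24Rik, exons 2 and 3 of 1810058I24Rik-203, chr6:35260463-35261159, plus strand: gctcagaactatgAAATgccaaacctggct
Gm44386, exons 1 and 2 of Gm44386-201, chr6:86514068-86516023, minus strand: gggagaagagtagAAATactccagaagagg
1700020I14Rik, exons 1 and 2 of 1700020I14Rik-202, chr2:119594434-119596259, plus strand: gctggaccgtgtgAGGAaccatatcacaca
1700020I14Rik, exons 2 and 3 of 1700020I14Rik-202, chr2:119596511-119599588, plus strand: acctggggaactgAGGAattcctatgtgga
Snhg9, exons 1 and 2 of Snhg9-201, chr17:24719607-24719860, minus strand: cgttggcgtgttcGGGTtcccctggatatg

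Replicate 1 held 630211 mouse reads and replicate 2 held 664319, so that 1 read stood for 1.61 and 1.48 CPM, reads per 1000000 mouse reads, after scaling by TMM. A gene without reads had a level below 4.83 CPM in replicate 1 or 4.45 CPM in replicate 2 at the limit of 3 reads that a count of 0 allows. All 10 cardiac muscle markers were read, at a summed 48198 and 45777 CPM. The libraries differed in markers of other tissue. Erythroid markers summed to 24613 CPM in replicate 1 and 9506 CPM in replicate 2, fat markers to 37.0 and 518 CPM, and airway epithelium markers to 0 and 539 CPM, with 1 of the 3 airway markers at 0 in both. The part of these in the lncRNA values was not tested. In whole tissue, fewer cells of a type and less RNA per cell cannot be told apart.

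Reads of lncRNA genes were few. They numbered 4495 in replicate 1 and 4923 in replicate 2, or 0.713% and 0.741% of all mouse reads, with a summed level of 7270 ± 52.4 CPM (SD, n = 2). Protein-coding genes took 92.2% and 91.9%. Of all annotated lncRNA genes, 12.7% had a read in either library, against 58.3% of the 22028 protein-coding genes. The gap widened for spliced reads, meaning reads in models of 2 or more exons outside the Genomic class described further on, which 5.59% of lncRNA genes had in either library, against 51.8% of protein-coding genes. Spliced reads were found for 350 lncRNA genes in replicate 1 and for 390 in replicate 2, for 523 in either and for 217 in both. Only 40 lncRNA genes had at least 5 spliced reads in each library.

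Whether a lncRNA gene was found again depended on its count. Of the 177 lncRNA genes with a single spliced read in replicate 1, 72 had spliced reads in replicate 2 (40.7%). With 2 to 4 reads it was 91 of 119 (76.5%), and with 5 or more it was 54 of 54. Protein-coding genes in the same ranges were found again in 62.7%, 87.9% and 99.5% of cases. A lncRNA gene without reads is therefore one that was not detectable at this depth, and its absence is not shown. Across the 217 genes seen in both libraries, the spliced reads of one library followed those of the other with a Pearson r of 0.82 on log2 reads and a Spearman rho of 0.69. These points are genes that share the same pair of libraries, so both values are descriptions.

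**Figure D1:**
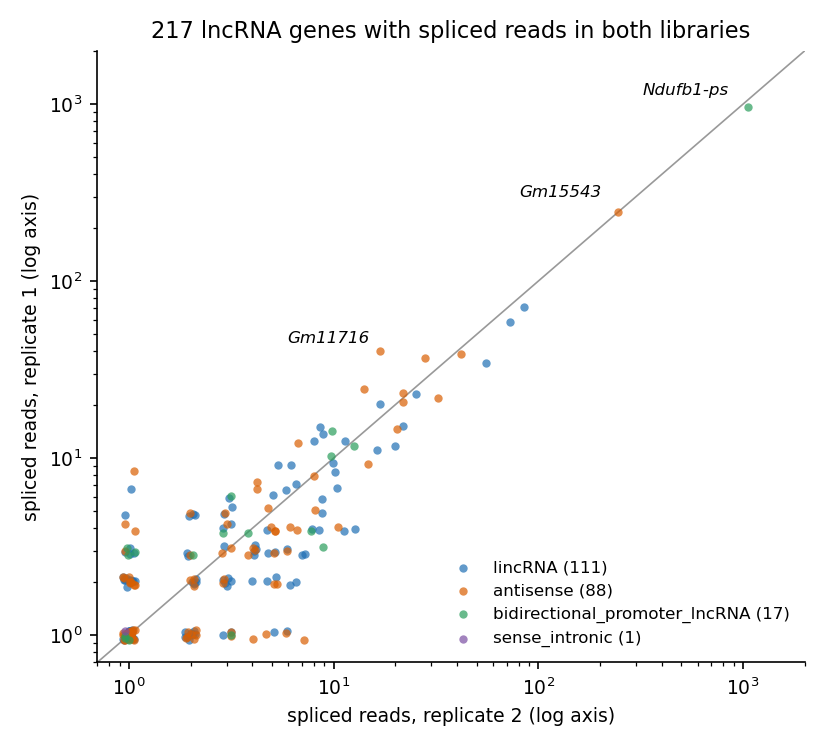
Spliced reads of each lncRNA gene in replicate 1 (vertical, log axis) against replicate 2 (horizontal, log axis), for the 217 genes with spliced reads in both, coloured by gene type with the number of genes in brackets. Points are shifted at random by a small amount so that equal counts stay visible, and the line marks equal reads. Ndufb1-ps (956 and 1023) and Gm15543 (252 and 245) stand far above the rest, and most genes lie below 10 reads.

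A few genes held most of the spliced reads. Ndufb1-ps alone took 39.1% of the spliced lncRNA reads in replicate 1 and 38.4% in replicate 2, and the 15 genes with most spliced reads over both libraries took 66.9% and 64.8%. The median lncRNA gene with spliced reads had 1 read in either library. Because 1 long read counts 1 molecule, CPM is not divided by length here, and model lengths are given beside the levels. For known transcripts these are annotated lengths, since the exons of all 27441 listed equalled the annotation. How far single reads reached along them is not shown. Whether long transcripts were undercounted was not tested.

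Ndufb1-ps (bidirectional_promoter_lncRNA, chr12:101968090-101977068, minus strand) had 956 spliced reads in replicate 1 and 1023 in replicate 2, a level of 1528 ± 14.1 CPM (SD, n = 2). Its 2 libraries differed by a ratio of 1.01 (95% interval 0.927 to 1.11, counting error only). The leading transcript, Ndufb1-ps-203, has 3 exons and 861 bases and took 769 and 842 of these reads (80.4% and 82.3%). Both junctions printed first above belong to it. The Ndufb1 gene is known to encode an accessory subunit of respiratory complex I, the first enzyme of the mitochondrial electron transport chain, and RefSeq (GRCm38.p6) lists this locus as Ndufb1, protein-coding. The longest reading frame from an ATG in the leading transcript has 57 codons. The coding gene that overlaps its start on the other strand, Cpsf2, a subunit of the complex that cleaves pre-messenger RNA, had 7 and 3 reads.

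Gm15543 (antisense, chr6:145182275-145187630, plus strand) followed with 252 and 245 spliced reads, 385 ± 29.6 CPM. Its single annotated transcript of 2 exons and 361 bases took 252 of 252 and 244 of 245 of them, so that its structure was nearly uniform in both libraries. It lies within Casc1 on the other strand, which had 1 read in each library. No role of Gm15543 is given in the annotation, and its longest reading frame has 47 codons.

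A pair of lincRNA genes on chromosome 6 came next. 1810058I24Rik (lincRNA in the annotation, protein-coding in RefSeq, chr6:35252654-35263496, plus strand) had 72 and 90 spliced reads, 125 ± 12.5 CPM, with 94.4% and 93.3% of them in a transcript of 3 exons and 2521 bases. Gm44386 (lincRNA, chr6:86513891-86516273, minus strand) had 60 and 75, 104 ± 10.4 CPM, with 91.7% and 94.7% in its only annotated transcript of 2 exons and 429 bases. No coding gene overlaps either of them on the other strand.

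1700020I14Rik (lincRNA, chr2:119594297-119607502, plus strand) is Oip5os1 in RefSeq, also called Cyrano, a conserved lncRNA known to trigger the destruction of the microRNA miR-7. It had 35 and 53 spliced reads, 67.5 ± 15.8 CPM, of which 71.4% and 64.2% fell in the transcript of 3 exons and 8300 bases, the longest leading model among these 15 genes. It also had 13 and 11 Genomic reads over its own exons. Snhg9 (antisense, chr17:24719531-24719965, minus strand), a host of a small nucleolar RNA, had 39 and 41 spliced reads, 61.8 ± 1.34 CPM, all in 1 transcript of 183 bases. It lies against Rps2, a ribosomal protein gene with 107 and 89 reads.

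The 9 other genes among the 15 lay between 28.7 and 49.8 CPM on average. Gm15417 had 37 and 27 spliced reads, against 5 and 1 reads of Zbtb7b, the coding gene it overlaps, which encodes a transcription factor. Gm11716 had 38 and 18, against 15 and 15 of Pitpnc1, which encodes a phosphatidylinositol transfer protein. Atcayos had 23 and 31, against 11 and 7 of Atcay. In these 3 pairs the lncRNA had more reads than its coding partner in both libraries.

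9330158H04Rik, which overlaps the muscarinic receptor gene Chrm2 (8 and 17 reads), had 23 and 25 spliced reads spread over 14 different models, and the leading one took 17.4% and 24.0%. D830024N08Rik had 22 and 22, against 356 and 409 reads of Tecr, an enzyme of very long chain fatty acid synthesis. Sp3os had 22 and 22, with 90.9% of them in 1 transcript in both libraries, Gm5532 had 16 and 23, Lppos had 20 and 17 and Gm13375 had 23 and 14. These levels rest on 14 to 38 reads a library, and the levels of different genes were not tested against each other.

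**Figure D2:**
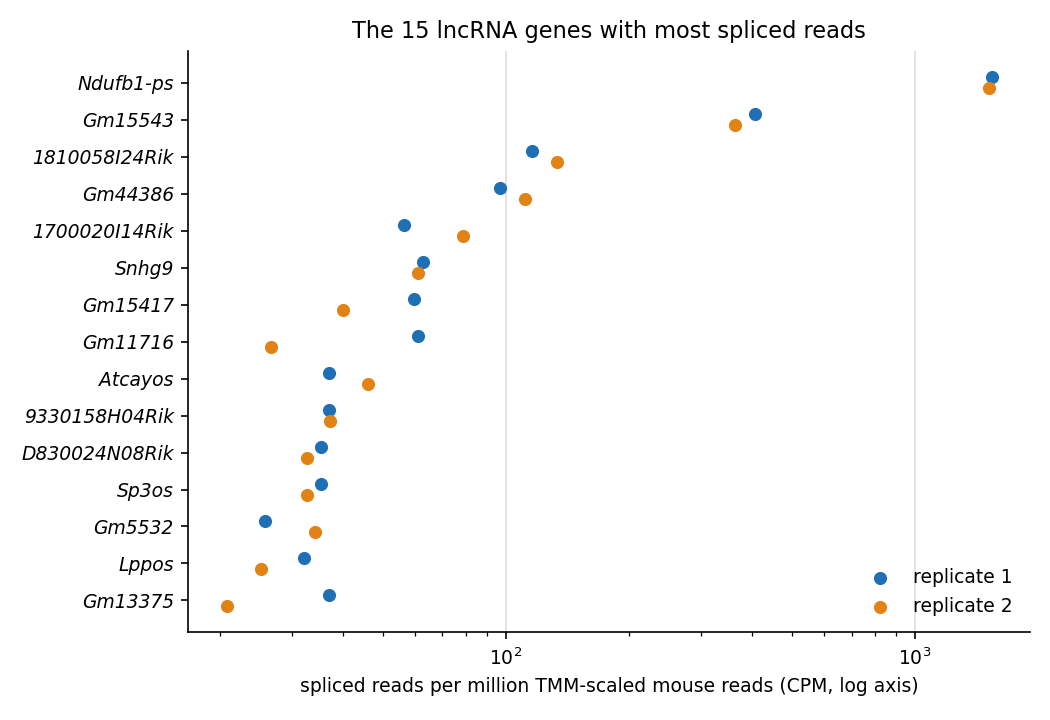
Level of the 15 lncRNA genes with most spliced reads, as spliced reads in CPM on a log axis, with 1 point for replicate 1 and 1 for replicate 2. Ndufb1-ps sits at 1528 CPM on average and Gm15543 at 385 CPM, while the 9 lowest genes sit between 28.7 and 49.8 CPM. Gm11716, with 38 and 18 reads, has its points farthest apart.

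Annotated lncRNA transcripts that were read were short and had few exons. The 335 known spliced transcripts with reads, from 286 genes, had a median of 2 exons and 769 bases, and 55.8% of them had exactly 2 exons. Known spliced transcripts of protein-coding genes that were read had a median of 7 exons and 2255 bases, and 8.55% had 2 exons. All 12394 annotated spliced lncRNA transcripts had a median of 3 exons and 762 bases, with 40.6% of 2 exons. Counted by reads, transcripts of 3 exons led with 60.2% and 61.5%, which is Ndufb1-ps. Without that gene, transcripts of 2 exons took 72.6% in replicate 1 and 69.4% in replicate 2.

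**Figure D3:**
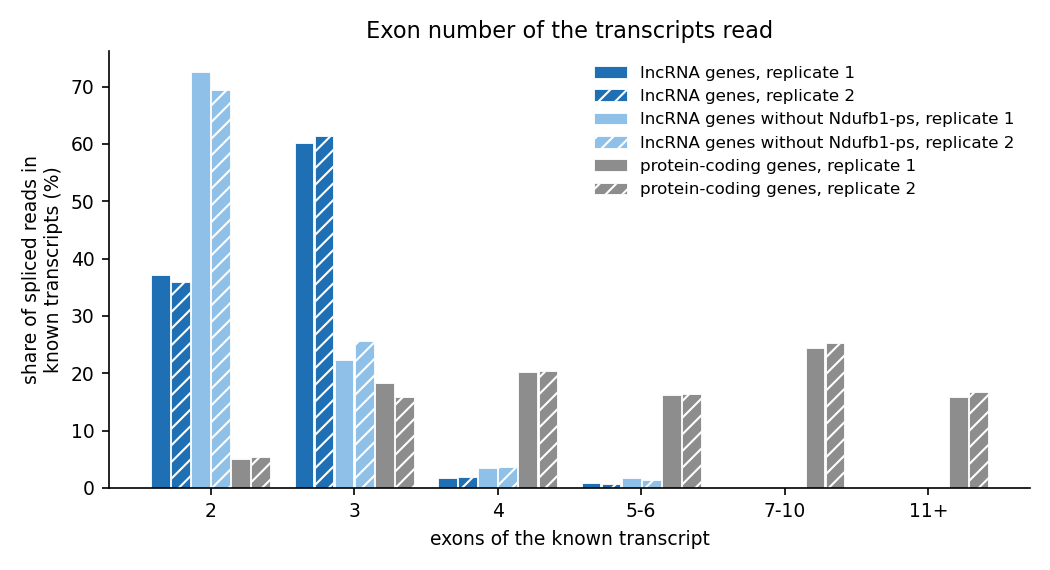
Share of the spliced reads in known transcripts (vertical axis, %) by the number of exons of the transcript, for lncRNA genes, lncRNA genes without Ndufb1-ps and protein-coding genes, with plain bars for replicate 1 and hatched bars for replicate 2. Without Ndufb1-ps, 2-exon transcripts took 72.6% and 69.4% of lncRNA reads, against about 5% of protein-coding reads, which spread over all exon numbers.

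The longest reading frames of the transcripts read were similar in length to those of all annotated ones, which include them. No test was run on this. The 125 known spliced lncRNA transcripts read in both libraries had a median longest frame of 59 codons and 12% had one of 100 codons or more, while all 12394 annotated ones had a median of 58 codons and 14.2%. Among the leading known transcripts of the 15 genes above, frames ran up to 97 codons. RefSeq lists 378 of the 523 lncRNA genes with spliced reads as lncRNA, 9 as protein-coding and 3 as pseudogenes of either kind, and 133 had no match by name. The 9 genes it lists as protein-coding held 1036 of the 2447 spliced lncRNA reads in replicate 1 and 1123 of 2665 in replicate 2, nearly all of them in Ndufb1-ps and 1810058I24Rik.

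The share of spliced lncRNA reads in annotated transcripts was lower once Ndufb1-ps was left out. No top gene was left out of the protein-coding set in the same way. Known transcripts took 77.6% and 77.3% of the spliced lncRNA reads, but 65.2% and 65.0% without Ndufb1-ps, against 81.8% and 80.9% for protein-coding genes. Models with a splice site absent from the annotation (class NNC) took 14.1% and 13.6% of spliced lncRNA reads, 23.1% and 22.0% without Ndufb1-ps, and 2.78% and 2.70% for protein-coding genes. Models that match part of an annotated chain (class ISM) took 4.37% and 4.77% for lncRNA genes, against 12.0% and 12.9%. A spliced model of this class needs an annotated transcript of more than 2 exons. Of the known spliced transcripts read, 55.8% had 2 exons for lncRNA genes and 8.55% for protein-coding genes. The ISM shares were not compared at equal exon number. The 95% intervals do not overlap between lncRNA and protein-coding genes for NNC or ISM in either library. They cover counting error of reads only, not variation between genes, so they do not test the 2 gene sets against each other.

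New spliced models, those of class NNC or of annotated sites in an unannotated combination (class NIC), numbered 559 in 338 lncRNA genes. When matched by their chain of introns, 79 of them in 55 genes recurred in both libraries (14.1%), against 3715 of 22868 models of protein-coding genes (16.2%). For some lncRNA genes the leading model was a new one. A model of Gm11716 with 3 exons, 1 annotated intron and 2 new splice sites took 27 of 38 spliced reads in replicate 1 and 14 of 18 in replicate 2, while its annotated transcript took 3 and 1. A 2-exon model of Gm5532 with 1 new site took 10 of 16 and 15 of 23. A 3-exon model of D830024N08Rik with 2 new sites took 11 of 22 in each library, against 1 and 1 in its annotated transcript. Lppos had a 2-exon model with 1 new site that took 16 of 20 and 8 of 17. Another new 2-exon model of Lppos took 3 and 8, as many as the first in replicate 2. Gm36827 joined annotated sites in a new way in 6 of 11 and 9 of 17 reads. In these 5 genes no annotated transcript took as many reads as the new model in either library.

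Spliced lncRNA genes often began close to the start of a coding gene on the other strand. Of the 217 genes with spliced reads in both libraries, 71 (32.7%) had such a start within 1000 bases, against 792 of the 8129 lncRNA genes with annotated introns but no spliced reads (9.74%). Within 300 bases it was 20.3% against 5.60%, and within 5000 bases 40.6% against 16.4%. The gene types differ in how they are defined, and within lincRNA genes the shares were 20 of 111 (18.0%) and 4.50%, and within antisense genes 37 of 88 (42.0%) and 17.8%. Among bidirectional_promoter_lncRNA genes, which are typed by this very position, they were 82.4% of 17 and 92.5% of 107. No test was run on these shares.

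The coding neighbour usually had more reads than the lncRNA. The 71 pairs with starts within 1000 bases are called divergent here, whether or not the genes overlap. Some overlap head to head, such as Gm17251 with Rab11b by 539 bases and Gm13594 with Cobll1 by 648 bases. In all, 99 of the 217 genes overlapped a coding gene of the other strand. In 50 of the 71 divergent pairs the coding gene had more reads than the lncRNA had spliced reads in both libraries. In 13 it had fewer in both, and in 68 it had at least 1 read. The medians were 3.84 CPM for the lncRNA and 16.1 CPM for the coding gene, with a Spearman rho between them of -0.09 over the 71 pairs. In 57 further pairs the lncRNA overlapped a coding gene of the other strand without a nearby start, with medians of 3.84 and 9.41 CPM and a rho of 0.15. The points share libraries, so both are descriptions.

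Single pairs ran in both directions. C130080G10Rik starts 787 bases from Actc1, the cardiac alpha actin gene, and had 3 and 6 spliced reads, against 1620 and 1740 reads of Actc1. D830005E20Rik overlaps Trdn, which encodes triadin of the calcium release complex of the sarcoplasmic reticulum, and had 3 and 3, against 542 and 572. Lppos overlaps Lpp head to head by 82 bases and had 20 and 17 spliced reads, against 7 and 7 reads of Lpp, a focal adhesion protein gene. Gm13375 starts 173 bases from Arhgap21 and had 23 and 14, against 5 and 5. 1500026H17Rik starts 86 bases from Scyl2 and had 12 and 13, against 0 and 3.

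Promoters of lncRNA genes were compared because so many lie beside coding starts. Windows of 300 bases, mostly before the RefSeq start on GRCm38.p6, were sought for the 217 lncRNA genes with spliced reads in both libraries. A RefSeq promoter was matched for 144 of them, and 142 had a full window. A GC box (GGGCGG on either strand) was present in 42.3% of these windows, in 18.0% of 2944 windows of lncRNA genes without spliced reads, in 66.6% of 7238 windows of protein-coding genes with spliced reads in both libraries and in 35.9% of all 27025 windows. The letters CCAAT on either strand were in 40.1%, 36.8%, 38.8% and 37.9% of the same sets, and TATAAA on either strand in 18.3%, 15%, 6.95% and 14.2%. The median number of CG dinucleotides in a window was 11 for the lncRNA genes with spliced reads, 4 for those without and 21 for the protein-coding genes. A match is a description of letters and not of a bound site.

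The windows of the 3 lncRNA genes with most spliced reads show this range, and capitals in them mark any of the 3 motifs on either strand. The window of Ndufb1-ps holds none and 29 CG dinucleotides. Its RefSeq start lies 516 bases downstream of the start of the leading transcript, at chr12:101976254. This window therefore lies inside exon 1 of the leading transcript and not before it. The RefSeq start of Gm15543 is that of its transcript, and its window holds a CCAAT match on the other strand and 8 CG dinucleotides. The RefSeq start of 1810058I24Rik lies 56 bases from that of its leading transcript, and its window holds GC boxes on both strands and 25 CG dinucleotides.
Ndufb1-ps, chr12:101975689-101975988, minus strand: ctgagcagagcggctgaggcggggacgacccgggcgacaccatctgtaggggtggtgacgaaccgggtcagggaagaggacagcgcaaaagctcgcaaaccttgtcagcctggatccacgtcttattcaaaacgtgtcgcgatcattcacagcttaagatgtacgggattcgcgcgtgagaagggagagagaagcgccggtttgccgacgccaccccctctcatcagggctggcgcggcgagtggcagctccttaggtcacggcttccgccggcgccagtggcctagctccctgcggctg
Gm15543, chr6:145182025-145182324, plus strand: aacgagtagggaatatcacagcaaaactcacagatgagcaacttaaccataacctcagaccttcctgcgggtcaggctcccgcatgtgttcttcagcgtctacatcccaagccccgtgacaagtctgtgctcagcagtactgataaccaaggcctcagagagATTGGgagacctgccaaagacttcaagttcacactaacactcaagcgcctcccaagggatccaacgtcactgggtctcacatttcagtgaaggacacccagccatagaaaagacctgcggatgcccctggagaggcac
1810058I24Rik, chr6:35252460-35252759, plus strand: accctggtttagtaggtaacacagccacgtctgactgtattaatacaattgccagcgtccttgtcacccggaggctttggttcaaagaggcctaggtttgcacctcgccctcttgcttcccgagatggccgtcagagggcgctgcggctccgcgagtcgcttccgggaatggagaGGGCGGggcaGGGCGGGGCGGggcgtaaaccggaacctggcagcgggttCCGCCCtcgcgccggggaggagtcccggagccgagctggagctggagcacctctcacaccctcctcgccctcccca

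**Figure D4:**
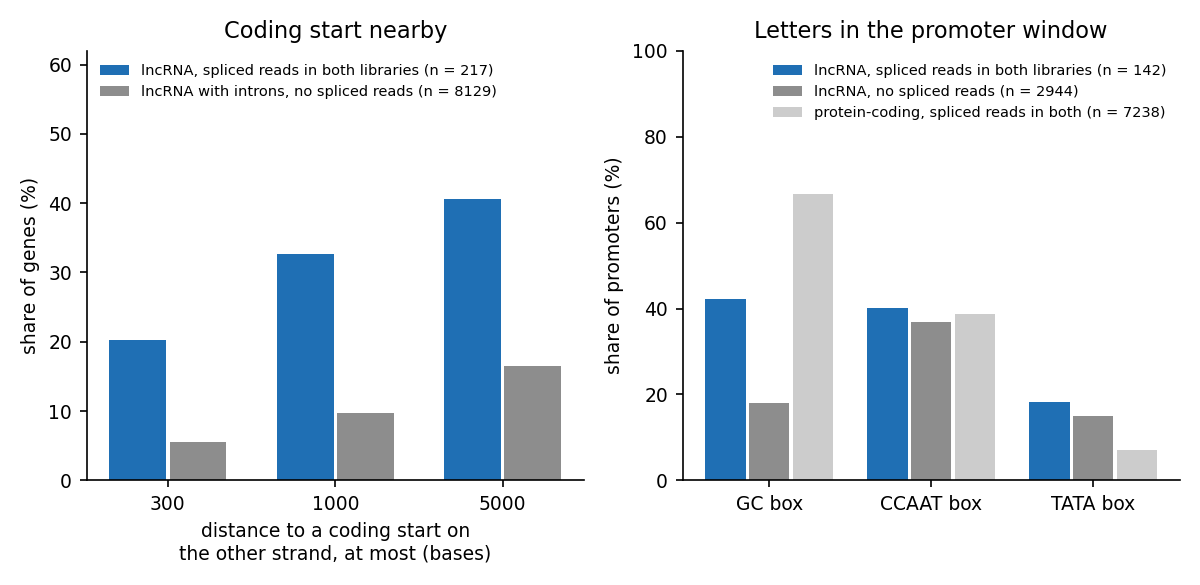
Left, share of lncRNA genes (%) with a coding start on the other strand within 300, 1000 or 5000 bases, for 217 genes with spliced reads in both libraries and 8129 genes with annotated introns and no spliced reads. Right, share of 300-base promoter windows (%) that hold each motif, for lncRNA genes with spliced reads (142), without spliced reads (2944) and protein-coding genes with spliced reads (7238). The GC box share of spliced lncRNA genes (42.3%) lies between those of the other sets, and the CCAAT shares lie within 36.8% and 40.1%.

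Many of the reads credited to lncRNA genes were not in spliced models. Spliced models took 54.4% of lncRNA reads in replicate 1 (95% Clopper-Pearson interval 53.0 to 55.9%) and 54.1% in replicate 2 (52.7 to 55.5%), against 82.3% and 81.4% for protein-coding genes. Without Ndufb1-ps the lncRNA share was 42.2% and 42.1%. Single-exon models took 14.5% and 15.1%, and the Genomic class, which holds reads that match no transcript and are set apart as possible priming inside RNA or unspliced RNA, took 31.0% and 30.8%, against 9.32% and 8.23% for protein-coding genes. In 662 of the 1185 lncRNA genes with reads, no read lay in a spliced model in either library. Genomic reads were never counted as spliced, although 38 of the 1394 in replicate 1 and 65 of the 1517 in replicate 2 had 2 or more exons. Of the 662 genes, 53 had such reads.

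The gene types differed in this respect. Spliced models took 41.6% and 44.9% of lincRNA reads, 42.5% and 39.9% of antisense reads and 92.4% and 92.0% of bidirectional_promoter_lncRNA reads, where Ndufb1-ps dominates. Genomic reads made up 50.8% and 52.0% of antisense reads, against 30.0% and 27.7% of lincRNA reads. The sense_intronic genes had only 26 and 34 reads, of which 22 and 29 were single-exon, and Gm31814 was their only gene with spliced reads in both libraries, 1 in each. The sense_overlapping genes had 6 and 5 reads, none of them spliced, with exact 95% upper limits of 45.9% and 52.2%.

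**Figure D5:**
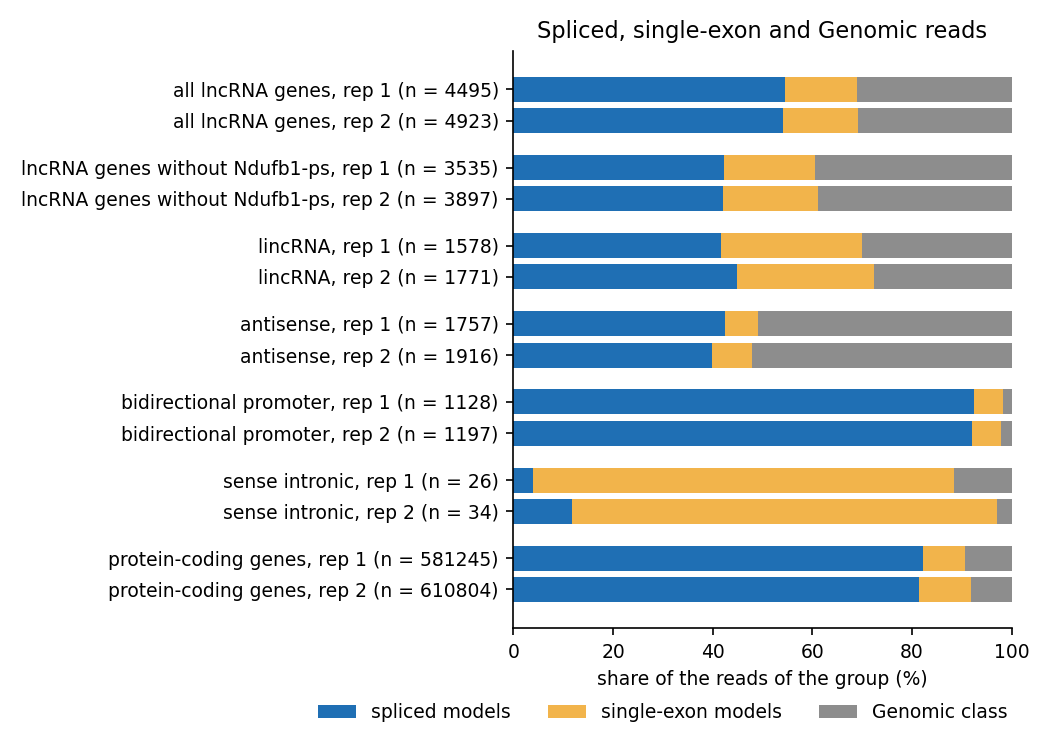
Share of the reads of each gene group (horizontal axis, %) in spliced models, single-exon models and the Genomic class, with 1 bar for each library and its number of reads in brackets. All lncRNA genes are at 54.4% and 54.1% spliced, antisense genes have 50.8% and 52.0% in the Genomic class, and protein-coding genes are at 82.3% and 81.4% spliced.

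The Genomic reads of lncRNA genes were set against annotated exons. Of 1394 such reads in replicate 1 and 1517 in replicate 2, 39.3% and 41.0% had at least 50% of their bases on coding-gene exons of the opposite strand, and 20.5% and 21.6% on annotated exons of the lncRNA itself. The first kind came from 80 and 86 genes and the second from 118 and 139 genes. Gm43126, Gm20659 and Gm37401 held 312 and 322 of the opposite-strand reads. Without these 3 genes the order turned, with 236 and 300 reads over opposite coding exons and 286 and 327 over own exons. Overlap with coding-gene exons of the same strand was found for 1.22% and 0.264%. Single-exon reads differed, with 98.0% and 96.4% on the exons of their own gene.

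The gene with most Genomic reads, Gm43126 (antisense, chr6:127122966-127126155, plus strand), had 163 and 192, all over exons of the cyclin gene Ccnd2 on the other strand. Ccnd2 itself had 27 and 21 reads, fewer than were credited to the antisense gene in each library. Gm20659 had 87 and 77, all over Dusp3, a phosphatase gene with 65 and 48 reads of its own. Gm37401 had 62 and 53, all over the GTPase gene Rhoa with 78 and 104 reads. 4631405J19Rik differed from these, since 38 of its 38 and 27 of its 28 Genomic reads lay over its own exons, beside 13 and 7 spliced reads.

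Single-exon reads came from a few genes. Gm10076 (lincRNA, chr14:105681828-105682211) had 86 and 88, 135 ± 5.49 CPM. Gm42418 had 47 and 51 and AY036118 had 47 and 30, and all of these reads overlapped both genes, which lie on opposite strands, and the annotated ribosomal RNA gene CT010467.1. Counts of that pair are uncertain for this reason. 2900097C17Rik, which is Norad, a cytoplasmic lncRNA known to bind Pumilio proteins, had 36 and 46 single-exon reads over its own exon, 63.1 ± 7.32 CPM.

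Among nuclear lncRNAs, Neat1, the scaffold of paraspeckles, had 36 reads in replicate 1 and 71 in replicate 2, 81.7 ± 33.6 CPM, all but 1 in each library single-exon. Malat1, a lncRNA of nuclear speckles, had 27 and 22 single-exon reads, 38.1 ± 7.63 CPM. Meg3, Miat and Rmst had no reads in either library, so 2 of the 5 lncRNA genes in this list were read.

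Among lncRNAs studied in heart, 11 of 25 names searched were in the gene set, 9 had reads and 6 had spliced reads. Names were matched to the annotation, so that 1700020I14Rik (Oip5os1, Cyrano), described above with 35 and 53 spliced reads, is not in these counts, while Norad is in them as 2900097C17Rik. A further 5 names had another gene type and were left out. Among them Hand2os1, typed processed_transcript, had 54 and 70 spliced reads, more than any heart list member counted here. Mir22hg had 1 and 3, Dancr 0 and 2, and Fendrr and Gm47283 had 0. Bvht had 4 and 12 spliced reads, 12.1 ± 8.04 CPM, a ratio of replicate 1 over replicate 2 of 0.361 with a 95% interval of 0.0849 to 1.19. Gm12295 had 5 and 2 reads, Chaer1, known from cardiac hypertrophy, had 0 and 4, and Carmn, a lncRNA of muscle cells of vessels, had 2 and 0. Tug1 had 3 and 1 and Epb41l4aos 2 and 2, Pvt1 and Lncpint had 1 read each in all, and Hotair and Hottip, which lie in the Hox gene clusters, had 0. Values of this size are within a few reads of the limit that a count of 0 allows.

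Hosts of small nucleolar RNAs were read in all 6 members of that list, and spliced in all 6. Another 10 names on the list had a gene type outside the set and were left out. Gas5 had the most reads of these, 30 and 43. After Snhg9, Snhg20 had 11 and 21 reads (24.4 ± 9.52 CPM), Snhg6 had 7 and 4, Snhg18 had 3 and 7, Snhg12 had 3 and 4 and Snhg10 had 1 and 0. Of the 7 members of the list drawn up for microRNA hosts, 1 had a read, Mirt1 with 0 and 1. Whether Mirt1 hosts a microRNA was not checked. Mir17hg, Mir155hg, Mir124a-1hg and Mir9-3hg had 0 in both libraries. Mir133a-1hg, which that list does not hold, had 1 and 4 spliced reads. The single gene left of the list of telomere and other RNAs, Rmrp, had no reads.

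Of the lncRNAs of X inactivation, which silences an X chromosome in female cells, Xist had 4 and 7 reads and Tsix, its antisense partner, 8 and 16. All were of the Genomic class, and 1 of them, a Tsix read in replicate 1, was in a model of 2 or more exons. Of the Tsix reads, 8 and 14 lay over Xist exons on the opposite strand, and all Xist reads lay over Xist exons that Tsix exons also cover, so the pair cannot be told apart by position alone. Jpx had 1 and 0 reads and Ftx 0 and 2. The 217 genes with spliced reads in both libraries included 1 on the X chromosome.

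Of 9 imprinted lncRNA genes, which are read from one parental copy, 4 had reads. Airn, the antisense lncRNA of the Igf2r cluster, had 9 and 5 reads with 2 and 3 of them spliced, Peg13 had 5 and 6, Kcnq1ot1 had 4 and 1 and H19 had 4 and 2. Meg3, Mirg, Nespas, Igf2os and Gm32061 had 0 in both libraries.

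The libraries were then compared gene by gene with an exact two-sided binomial test, Benjamini-Hochberg adjusted over all 7545 annotated genes with at least 10 reads. The test compares these libraries and no condition. Of all genes tested, 2.07% were called, 0.861% higher in replicate 1 and 1.21% higher in replicate 2. Of the 145 lncRNA genes tested, 2 were called, both higher in replicate 1, which is close to the share over all genes. An unadjusted p under 0.05 was found for 13 of these 145, beside 735 of all 7545 genes. Both called genes were called on Genomic reads.

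AC154200.1 (lincRNA, chr17:17340820-17374206, minus strand) had 74 reads in replicate 1, all Genomic, and 1 read in replicate 2, which was spliced (ratio 80.2, 95% interval 14 to 3211, adjusted p = 3.74e-20, exact binomial test). Of the 74, 73 belonged to 1 model of 280 bases that shares 1 base with Oaz1-ps, a processed pseudogene at chr17:17345456-17346140. Oaz1-ps had 3 reads in replicate 1 and 82 in replicate 2. Summed, AC154200.1 and Oaz1-ps had 77 and 83 reads, a ratio of 1.01 (95% interval 0.728 to 1.39), and the difference between the libraries was then not called.

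Gm15614 (antisense, chr5:32507184-32651065) had 15 and 2 reads, all Genomic (ratio 8.13, 95% interval 1.89 to 73.3, adjusted p = 0.0458, exact binomial test). Without a filter on reads its adjusted p was 0.0912. Neat1 had a ratio of replicate 1 over replicate 2 of 0.550 (95% interval 0.357 to 0.832), and Gm11716 one of 2.29 (1.27 to 4.26), but neither passed the exact binomial test after adjustment (p = 0.115 and p = 0.105). None of the lncRNA genes in the lists of nuclear, heart, snoRNA host, X inactivation and imprinted genes with at least 10 reads was called by this exact test, and Neat1 alone among them had an unadjusted p under 0.05 (p = 0.00351).

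Restricted to spliced reads, 112 of 6205 genes (1.8%) were called between the libraries, 0.806% higher in replicate 1 and 0.999% higher in replicate 2. Of the lncRNA genes, 0 of 54 were called by the exact binomial test, with 2 at an unadjusted p under 0.05, Gm11716 and 2810001G20Rik. Over all 6205 genes, 553 had an unadjusted p under 0.05. The spliced reads of 2810001G20Rik, which starts 16 bases from Cox10, numbered 9 in replicate 1 and 1 in replicate 2 (exact binomial adjusted p = 0.234). The share of spliced reads in the leading model was tested with Fisher's exact test in 3897 genes, of which 0% were called. Of the 22 lncRNA genes tested, 0 were called and 2 had an unadjusted p under 0.05, Gm13375 with 23 of 23 reads in replicate 1 and 11 of 14 in replicate 2, and Lppos with 16 of 20 and 8 of 17. The median share of the leading model over these 22 genes was 87.9% in replicate 1 and 86.2% in replicate 2.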

How the data were processed

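Whole-number read counts per transcript model were deposited by the authors, 1 table and 1 set of models per library, with TALON classes per the file headers; the sources used here do not name the aligner or the versions. Exon numbers, model lengths and coordinates (mm10, GENCODE M21) are those the authors deposited, which for known transcripts equal the annotation. Spike-in models were left out. The labels do not say whether strand was fixed by the kit.

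Counts were summed per gene, spliced models (2 or more exons) apart from single-exon and Genomic rows. CPM used mouse reads scaled by TMM (edgeR 4.0.16, genes with at least 10 reads). A comparison of 1 library with the other leaves no residual degrees of freedom, so they were compared with exact binomial and Fisher tests (scipy 1.17.1), adjusted over all genes and called at 0.05. Both tests were tried on simulated counts drawn from the model that each assumes. Spread between real libraries beyond counting error was therefore not covered. The binomial test recovered 61.0% of 4-fold changes. Fisher's test recovered 59% of changes in share of 90 against 50%. Gene coordinates came from the annotation, since the deposited gene limits differed between the libraries. All 121156 models matched their table in exon number and length.

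Genes named were the 15 with most spliced reads, the called genes, list members with at least 5 reads, all X inactivation and imprinted members, the 5 with most Genomic, single-exon or new-model reads, 3 per gene type, and coding partners of the first 15. C130080G10Rik, D830005E20Rik, 2810001G20Rik, Mir133a-1hg, Gm36827 and the low list members were chosen after their values were seen. Members and lists were chosen with earlier results of these data known.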

Additional observations from a re-analysis of the deposited data

How the results depend on the processing

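The count of 217 lncRNA genes with spliced reads in both libraries depended on the minimum: it was 112 with at least 2 reads in each library, 40 with at least 5, and 116 on known transcripts, and 350 to 390 genes were seen with 1 library left out. The summed level of 7270 CPM was 3947 CPM on spliced reads, 5023 CPM without the Genomic class, 3896 CPM on known transcripts and 7211 CPM without genes that share exonic bases with a coding gene on the same strand. With 1 library left out it was 7233 to 7307 CPM. The 2 calls between the libraries were 1 without a filter, 1 with at least 50 reads, 0 on spliced reads and 0 without the Genomic class (exact binomial test, 2 and 5 genes at an unadjusted p under 0.05), since both called genes rest on Genomic reads. Summing AC154200.1 with Oaz1-ps, an alternative chosen after seeing the data, left 1. The spliced share of 54.3% was 78.6% with the Genomic class left out, 42.2% without Ndufb1-ps and 40.9% without genes that RefSeq lists as protein-coding, also chosen after seeing the data. It was 54.1 to 54.4% with 1 library left out. The leading model's median share of 87.0% was 68.6% over the 40 genes with at least 5 spliced reads in each library, of which 0 were called by Fisher's exact test and 2 had an unadjusted p under 0.05. Of the 71 divergent starts, 44 lay within 300 bases; 57 remained without bidirectional_promoter_lncRNA genes, a split also chosen after seeing the data. The median level of the named genes, 27.9 CPM, was 2.35 CPM on spliced reads, and 22 of 51 genes moved by more than their spread. Total reads or DESeq2 size factors changed no call. No paired analysis was possible because there is 1 group. Depth limits all values of a few reads.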
